A study of Danio rerio with 4 samples.

Results

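Bone morphogenetic protein (BMP) ligands, their intracellular and membrane inhibitors, and the Id genes that respond to them were examined in sorted cells of the zebrafish embryo. The set was fixed by name: the ligands bmp2b, bmp4 and bmp7a, the inhibitors bambia, smad6a, smad6b and smad7, and the response genes id1, id2a and id3. Of these 10 symbols, 5 matched the name of 1 Ensembl gene ID each, and id2a matched the ID named ID2 by a synonym that only this gene holds. The other 4 symbols correspond to 3 human-style names, BMP2, BAMBI and SMAD6, each of which is carried by 2 IDs. The 2 SMAD6 IDs stand for smad6a and smad6b, but the names do not tell which is which, and likewise which BMP2 ID is bmp2b and which BAMBI ID is bambia. All 6 of these IDs are therefore given by their ID, making 12 IDs of the 25873 in the deposited table. No coordinates are given, because the table holds none.

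BMPs are secreted dimers that bind paired type I and type II receptor kinases, which phosphorylate Smad1, Smad5 and Smad9. Phosphorylated Smads enter the nucleus with Smad4 and switch on targets such as the Id genes, whose products hold basic helix-loop-helix factors inactive. Several targets feed back on the pathway: Smad6 and Smad7 block receptors and receptor-activated Smads, and Bambi is a pseudoreceptor without kinase activity. In zebrafish, BMP signalling is needed for the ventral fates of the gastrula, for heart field specification and for the leftward movement of the heart tube.

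Cells came from embryos at 14 to 16 somites of a laboratory strain carrying Tg(nkx2.5:ZsYellow), in which nkx2.5 regulatory sequence drives a yellow fluorescent protein. The ZsYellow-positive fraction was labelled as progenitors of heart and pharyngeal mesoderm with cardiomyocytes. Both it and the ZsYellow-negative fraction carried this transgene, and the labels name no treatment. Whether same-numbered positive and negative libraries came from one embryo pool is not stated. Each fraction had 2 libraries, with totals of 31996733 to 40133331 counts. The labels do not say whether replicates were separate embryo pools, so p-values measure the spread between these libraries, which may be technical. The gene behind the reporter, NKX2-5, had 13259 and 20181 counts in the positive libraries against 207 and 195 in the negative ones. All 9 matched cardiopharyngeal markers and all 4 matched cardiomyocyte markers were called higher in positive cells, beside 9.02% of all genes tested. NKX2-5 is itself among the 9.

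Positive cells held more transcript of the ligand gene bmp4, of both SMAD6 genes, of both BAMBI genes and of 1 BMP2 gene, by 1.99-fold to 5.84-fold. None of the Id genes in the set passed the test. Counts were compared with edgeR's quasi-likelihood test, and a gene was called when its Benjamini-Hochberg adjusted p, taken over all 19084 genes tested, was under 0.05. All 12 IDs passed the filter on low counts, 6 were called higher and 0 lower. Unadjusted, the p of smad7 was 0.0454 and that of id1 0.0483, and limma and DESeq2 also called 0 of the set lower. Of all genes tested, 9.02% were called higher in positive cells and 8.07% lower. Calls of either kind thus made up 17.1% of genes against 50% of the 12 IDs. These 12 include 1 BMP2 ID and 1 BAMBI ID that are paralogs of the listed genes, so the share is not that of the listed genes alone. The genes were also chosen with earlier results of these data known, and the shares carry no test. The median log2 fold change was 0.99 over the 12 IDs and -0.01 over all genes tested. Groups did not overlap for 10 of the 12 IDs, with positive cells above in 7 and below in 3, against shares over all genes of 27.9% above, 30.3% below and 58.3% either way. Without negative replicate 1 the calls across the table were 950 higher and 747 lower, and without negative replicate 2 they were 852 and 771.

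**Figure D1:**
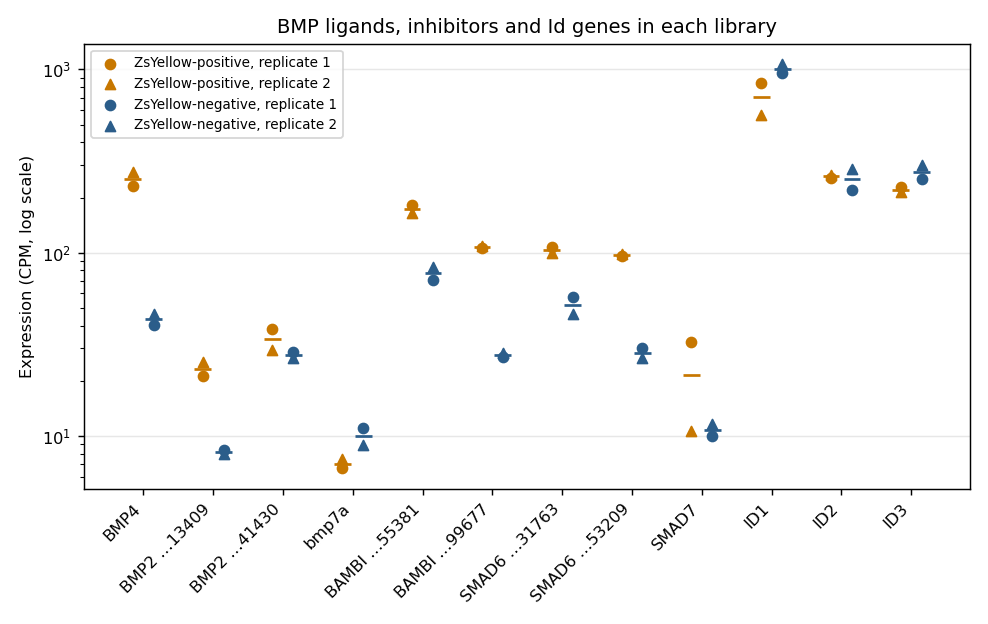
Expression of the 12 gene IDs in each of the 4 libraries, in CPM (counts per 1000000 after normalisation, log axis); circles are replicate 1, triangles replicate 2, and short lines the group means (n = 2). For bmp4, both BAMBI IDs and both SMAD6 IDs the positive libraries sit above the negative ones, while the SMAD7 symbols of the positive group lie far apart, at 32.4 and 10.7 CPM.

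The strongest difference in the set was that of bmp4 (ENSDARG00000019995), a ligand gene expressed in the zebrafish heart tube. In CPM, which are counts scaled to a library of 1000000 after trimmed-mean normalisation, bmp4 stood at 230 and 274 in the positive libraries and at 40.2 and 46.2 in the negative ones. The lowest positive library was thus well above the highest negative one. Its log2 fold change was 2.54 (standard error 0.19, adjusted p by edgeR 5.88e-05), a 5.84-fold difference that ranked 300 of the 19084 genes tested counting from the highest. Leaving out any 1 library kept bmp4 called, with log2 fold changes between 2.41 and 2.70. In bulk libraries more cells with a transcript and more transcript per cell cannot be told apart, and this holds for each gene below.

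BMP2 is a close relative of bmp4, and in zebrafish bmp2b is known for setting up ventral fates in the gastrula. The BMP2 ID ENSDARG00000013409 had 21.2 and 25.4 CPM in positive cells and 8.41 and 8.01 CPM in negative cells, a log2 fold change of 1.51 (standard error 0.21, adjusted p by edgeR 0.00128). The other BMP2 ID, ENSDARG00000041430, had 38.5 and 29.5 CPM against 28.8 and 26.6 CPM. Its groups did not overlap, but by less than 1 CPM, and the log2 fold change of 0.29 was not called (standard error 0.19, 95% interval -0.14 to 0.73 before adjustment, adjusted p by edgeR 0.356). A difference between these 2 IDs was not tested. The names do not tell which of them is bmp2b, so the called ID may be the paralog outside the listed genes.

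The third ligand of the set, bmp7a (ENSDARG00000018260), encodes the zebrafish partner of Bmp2b in the heterodimer that signals in the gastrula. It had 6.65 and 7.48 CPM in positive cells and 11.1 and 8.96 CPM in negative cells, and in TPM it was the lowest of the 12 IDs in both fractions. Neither positive library reached the lower negative one, yet the log2 fold change of -0.50 was not called (standard error 0.23, 95% interval -1.04 to 0.03 before adjustment, adjusted p by edgeR 0.187).

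**Figure D2:**
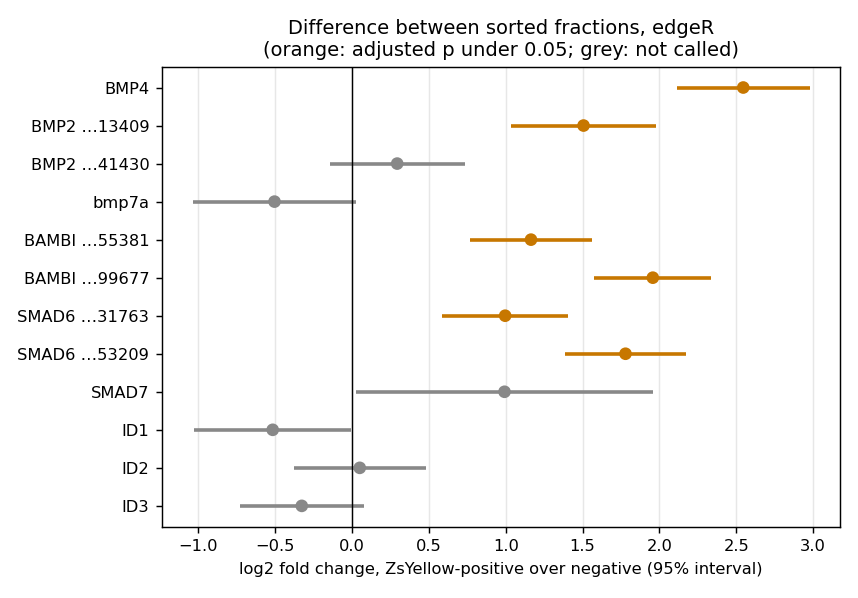
Log2 fold change of each gene ID, positive over negative, with its 95% interval from the edgeR fit before adjustment; orange marks IDs called at an adjusted p under 0.05 and grey those not called. The 6 called IDs lie between 1.00 and 2.54, and the interval of SMAD7, 0.03 to 1.96, is the widest.

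Seen per transcript length, the summed level of the BMP and GDF ligand IDs examined was higher in positive cells. Of the 18 tested, 8 were called higher and 1 lower, beside 9.02% and 8.07% of all genes tested. On the authors' length-corrected scale, TPM (transcripts per 1000000 transcripts), levels summed over 21 BMP and GDF ligand IDs to 334 and 419 in the positive libraries and to 156 and 134 in the negative ones. Ligand gene bmp4 supplied 28.1% and 29.2% of that sum in positive cells and 11.8% and 14.1% in negative cells. BMP3, a ligand that in mammals opposes other BMPs, was the largest supplier in negative cells with 25.3% and 28.5%, and came after bmp4 in positive cells with 20.4% and 23.4%. These shares are descriptions of levels and carry no test.

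**Figure D3:**
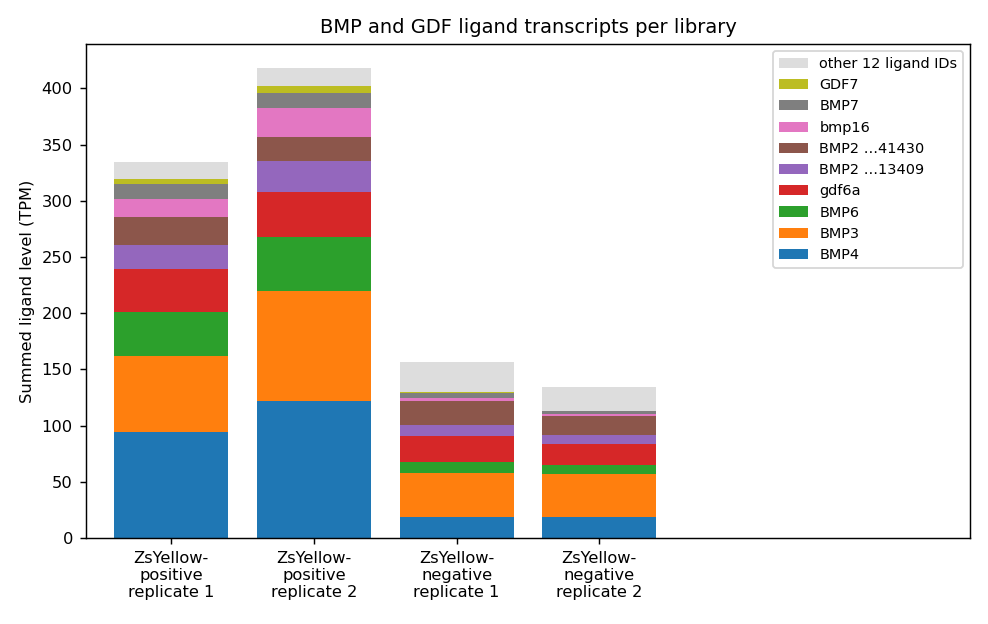
Summed level of 21 BMP and GDF ligand IDs in each library, in TPM on an axis from 0. Each colour is 1 ligand ID, and grey is the sum of the 12 with the lowest mean TPM in positive cells. The positive libraries reach 334 and 419 TPM and the negative ones 156 and 134 TPM, and the lowest, blue block is BMP4.

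Both BAMBI and both SMAD6 IDs were called higher, while the third kind of inhibitor in the set, smad7, was not. For the pseudoreceptor gene BAMBI, ENSDARG00000099677 had 106 and 108 CPM in positive cells and 26.9 and 28.4 CPM in negative cells. Its log2 fold change was 1.96 (standard error 0.17, adjusted p by edgeR 0.000111). The second BAMBI ID, ENSDARG00000055381, was the more abundant in every library, with 182 and 164 CPM against 71.0 and 83.3 CPM. It differed by 1.16 on the log2 scale (standard error 0.18, adjusted p by edgeR 0.00212). Every positive library exceeded every negative one for both IDs, as for 27.9% of all genes tested.

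Both genes of the inhibitory Smad6 were higher as well. SMAD6 ENSDARG00000053209 stood at 95.8 and 98.8 CPM in positive cells and at 30.2 and 26.5 CPM in negative cells, a log2 fold change of 1.78 (standard error 0.17, adjusted p by edgeR 0.000209). SMAD6 ENSDARG00000031763 had 108 and 99.9 CPM against 57.6 and 46.5 CPM, a log2 fold change of 1.00 (standard error 0.18, adjusted p by edgeR 0.00537). For each ID every positive library was above every negative one, as for 27.9% of all genes tested. Without negative replicate 2 the second of them was not called (log2 fold change 0.86, adjusted p by edgeR 0.0644).

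Within each pair of set IDs that share a name, the proportion differed between the libraries of the fractions. These proportions describe levels and were not tested. On the TPM scale BAMBI ENSDARG00000055381 was 1.51 and 1.34 times ENSDARG00000099677 in the positive libraries and 2.33 and 2.59 times in the negative ones. SMAD6 ENSDARG00000031763 was 1.35 and 1.19 times ENSDARG00000053209 in positive cells and 2.23 and 1.90 times in negative cells. BMP2 ENSDARG00000041430 was 1.16 and 0.743 times ENSDARG00000013409 in positive cells and 2.19 and 2.14 times in negative cells. In each of the 3 pairs the less abundant ID of negative cells was the one with the larger fold change. Reads shared by similar paralogs could be divided between IDs in counting, so the proportions are less certain than the sums. Summed over its pair, BAMBI reached 251 and 260 TPM in positive cells and 94.7 and 95.2 TPM in negative cells, and SMAD6 112 and 120 TPM against 55.9 and 42.1 TPM.

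The remaining inhibitor, smad7 (ENSDARG00000016858), blocks both BMP and TGF-beta receptors and gave no stable value in positive cells. It had 32.4 CPM in positive replicate 1 and 10.7 CPM in positive replicate 2, against 9.94 and 11.7 CPM in negative cells. The second positive library therefore lay within the negative range, and only the first stood above it. The positive libraries differed 3.03-fold, and 1.18% of the genes tested had a wider gap between them. The log2 fold change was 0.99 (standard error 0.43, 95% interval 0.03 to 1.96 before adjustment, adjusted p by edgeR 0.155). It was 0.01 and not called without positive replicate 1, and 1.59 and called without positive replicate 2 (adjusted p by edgeR 4.9e-09). In fits that leave out a positive library, here and below, the spread comes from the negative pair alone. Such a p leaves out the gap between the positive libraries and may be too firm. In fits that leave out a negative library, the spread comes likewise from the positive pair alone.

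By mean TPM the 3 Id genes were the most abundant of the set in both fractions, and they were not called in either direction. Transcripts of id1 (ENSDARG00000040764), a direct target of BMP-activated Smads, stood at 846 and 567 CPM in positive cells and at 953 and 1068 CPM in negative cells. Groups did not overlap, with positive replicate 2 the lowest library. The log2 fold change of -0.52 was not called (standard error 0.23, 95% interval -1.03 to -0.0047 before adjustment, adjusted p by edgeR 0.162). Without positive replicate 1 it was -0.80 and called lower (adjusted p by edgeR 0.011), and without positive replicate 2 it was -0.25 and not called.

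Beside smad7 and id1, both higher in positive replicate 1 than in positive replicate 2, other cell markers also differed between these libraries. Summed CPM of the 6 epidermal markers was 2834 in positive replicate 1 and 2258 in replicate 2, that of the 5 neural crest markers 193 and 153, that of the 8 presomitic and somite markers 126 and 91.7, and that of the 5 endoderm markers 63.3 and 47.1. The 8 endothelial markers summed to 913 and 1187, but 2 of them, named after their values were seen, were higher in replicate 1, tek with 26.2 and 8.32 CPM and ERG with 27.7 and 10.3 CPM. Other sums were closer, such as cardiopharyngeal (1722 and 1685), blood (554 and 549) and hatching gland (346 and 343). Markers within a list also diverged, and these too were named after their values were seen. CPM of msgn1 was 41.3 and 17.7 but of tbx6 6.42 and 7.23, and of foxa1 19.1 and 5.50 but of sox17 1.57 and 2.85. Among cardiopharyngeal markers GATA6 had 194 and 84.5 CPM but TBX20 51.3 and 84.7. Among epidermal markers krt4 had 808 and 515 CPM and krt8 1442 and 1230 CPM, but cdh1 214 and 233 CPM. The part of these markers in the spread of smad7 and id1 was not tested.

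The related gene id3 (ENSDARG00000054823) had 227 and 215 CPM in positive cells and 252 and 302 CPM in negative cells. Positive libraries were again both below the negative ones, with a log2 fold change of -0.33 that was not called (standard error 0.18, 95% interval -0.73 to 0.08 before adjustment, adjusted p by edgeR 0.261). For id2a (ENSDARG00000055283) the groups overlapped, with 257 and 266 CPM in positive cells and 219 and 286 CPM in negative cells. Its log2 fold change was 0.05 (standard error 0.19, 95% interval -0.38 to 0.48 before adjustment, adjusted p by edgeR 0.893). With upper-quartile factors, and without negative replicate 1, the sign of id2a turned, to -0.05 and -0.13. A missed threshold does not show equal expression: the intervals of id2a and id3 allow differences of the sizes they span.

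Levels can be ordered between genes only per length. In positive cells the order of mean TPM (SD, n = 2) was led by id1 with 1028 ± 227, id3 with 270 ± 5.9 and id2a with 237 ± 19.7. BAMBI ENSDARG00000055381 followed with 150 ± 1.55, then bmp4 with 108 ± 20.0 and BAMBI ENSDARG00000099677 with 105 ± 7.76. The last 2 of these overlapped between libraries. SMAD6 ENSDARG00000031763 and ENSDARG00000053209 came next with 64.5 ± 0.435 and 51.2 ± 4.99 TPM. Below them lay the BMP2 IDs ENSDARG00000013409 and ENSDARG00000041430 with 24.7 ± 4.63 and 22.8 ± 2.92 TPM, smad7 with 20.0 ± 14.5 TPM and bmp7a with 2.65 ± 0.387 TPM. The BMP2 IDs and smad7 overlapped one another.

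Negative cells kept the 3 Id genes on top, with 1493 ± 15.9 TPM for id1, 341 ± 12.7 TPM for id3 and 231 ± 22.9 TPM for id2a. There bmp4, at 18.7 ± 0.274 TPM, lay below both BAMBI IDs (67.5 ± 1.73 and 27.5 ± 1.38 TPM) and SMAD6 ENSDARG00000031763 (33.1 ± 7.79 TPM). It overlapped BMP2 ENSDARG00000041430 at 19.0 ± 2.70 TPM. SMAD6 ENSDARG00000053209 had 15.9 ± 1.98 TPM, smad7 11 ± 0.225 TPM, BMP2 ENSDARG00000013409 8.79 ± 1.08 TPM and bmp7a 3.83 ± 0.885 TPM. Over the 4 libraries the mean level of id1 exceeded that of 99.3% of genes tested, and that of bmp7a 40.2%.

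Other pathway genes were then read from the same fit, in lists grouped by role. The lists gave 78 IDs, of which 73 were tested, 12 were called higher and 17 lower, or 39.7% against 17.1% across the table. The median log2 fold change of these IDs was -0.05. These lists were chosen with earlier results of these data known, so the shares carry no test. Without either negative library the calls lower fell to 10. Ligands and response genes had medians of opposite sign. Of the 14 further ligand IDs tested, 6 were called higher and 1 lower, with a median of 0.51, while 1 of 11 further response genes was called higher and 7 lower, with a median of -1.20. BAMBI, SMAD6 and smad7, also named above as targets, are not in this response list. The BAMBI IDs (1.16 and 1.96) and the SMAD6 IDs (1.00 and 1.78) were called higher, and smad7 was not called. Targets of the pathway thus did not share 1 direction. The difference between the lists was not tested.

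**Figure D4:**
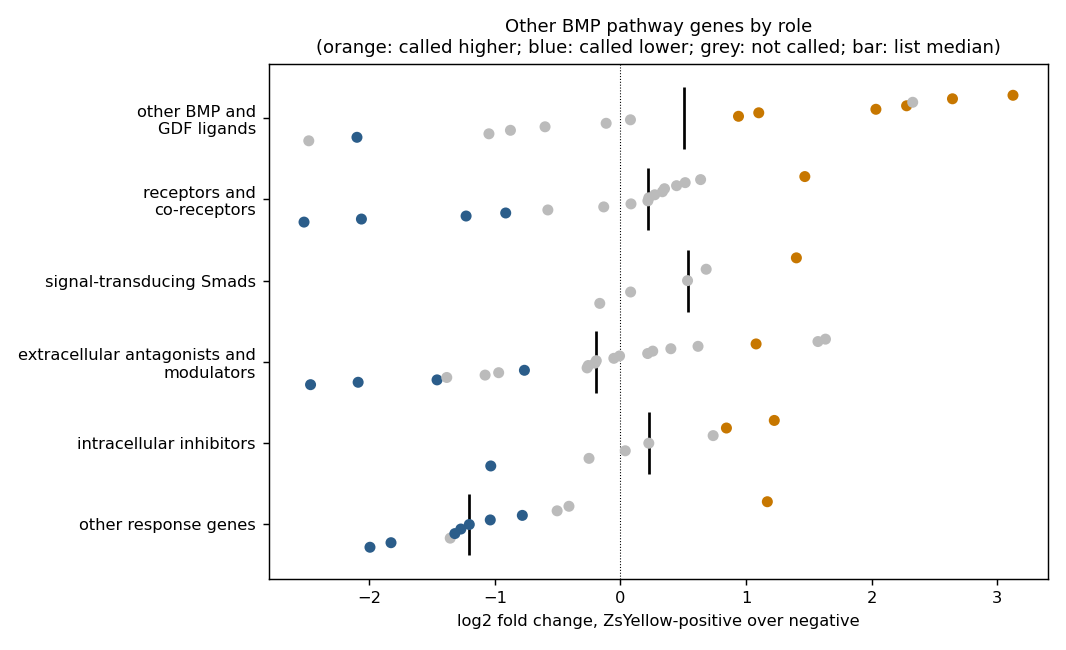
Log2 fold change, positive over negative, of the other pathway genes tested, 1 point per gene ID in rows by role; orange is called higher, blue called lower, grey not called, and the bar is the median of the row. The row of further ligands has its median at 0.51 and the row of other response genes at -1.20.

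Among the further ligands the largest difference was that of bmp16, a fish BMP related to Bmp2 and Bmp4, with 89.8 and 135 CPM in positive and 16.5 and 9.29 CPM in negative cells. Its log2 fold change was 3.13 (standard error 0.31, adjusted p by edgeR 0.000239). GDF7, known from the dorsal spinal cord of the mouse, was low at 3.98 and 4.61 CPM against 0.861 and 0.503 CPM and was called at 2.64 (standard error 0.37, adjusted p by edgeR 0.00146). BMP6, a ligand of the same branch as Bmp7, had 67.7 and 79.8 CPM against 15.8 and 14.6 CPM and differed by 2.28 (standard error 0.18, adjusted p by edgeR 8.17e-05). In all 3 ligands both positive libraries were above both negative ones, as for 27.9% of all genes tested. They were named by the size of their called change. The ID named BMP7 (ENSDARG00000063230), which is separate from bmp7a, was called higher at 2.04, from 17.7 and 16.5 CPM against 5.19 and 3.13 CPM (adjusted p by edgeR 0.00124).

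BMP3 and gdf6a, a regulator of eye and skeleton, were also called higher, at 1.1 and 0.94 (adjusted p by edgeR 0.00424 and 0.00475), and are named outside the naming rule after their values were seen. BMP3 was not called without negative replicate 1 (1.04, adjusted p by edgeR 0.054), and gdf6a not without negative replicate 2 (0.88, adjusted p by edgeR 0.059). The 1 ligand called lower was admp, which opposes the organizer in the gastrula, with 1.67 and 1.70 CPM against 7.05 and 7.42 CPM and a log2 fold change of -2.10 (standard error 0.27, adjusted p by edgeR 0.000895). Within this list of further ligands, the highest in TPM of those not called was GDF10 ENSDARG00000095378, at 3.55 ± 1.09 TPM in positive and 5.49 ± 1.81 TPM in negative cells (SD, n = 2 each, adjusted p by edgeR 0.198). Without positive replicate 2 it was called lower (-0.88, adjusted p by edgeR 0.0303).

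Of 16 receptor and co-receptor IDs tested, 1 was called higher and 4 lower, with a median of 0.22, beside 9.02% and 8.07% of all genes tested. The type I receptor gene BMPR1A ENSDARG00000105045 had 92.1 and 121 CPM in positive and 45.5 and 31.5 CPM in negative cells, a log2 fold change of 1.47 (standard error 0.23, adjusted p by edgeR 0.00247). The other BMPR1A ID, ENSDARG00000019728, was not called (0.27, adjusted p by edgeR 0.341). Another type I receptor gene, bmpr1ba, went the opposite way, with 14.0 and 15.2 CPM against 60.6 and 61.5 CPM and a log2 fold change of -2.06 (standard error 0.17, adjusted p by edgeR 0.000103). The repulsive guidance family, BMP co-receptors tethered to the membrane, supplied the other 3 calls lower. They were HJV, the co-receptor of iron control in mammals, at -2.52 (adjusted p by edgeR 8.62e-05), rgmd at -1.23 (adjusted p by edgeR 0.00144) and RGMA at -0.91 (adjusted p by edgeR 0.0131). RGMA was not called without negative replicate 1 (-0.72, adjusted p by edgeR 0.118) or with limma on log2(TPM + 1) (limma's adjusted p 0.0508). The most abundant receptor gene not called was acvr1l, the type I receptor gene of the lost-a-fin mutant, at 43.9 ± 9.71 TPM against 34.7 ± 6.92 TPM (SD, n = 2 each, adjusted p by edgeR 0.279).

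Of the 5 Smad IDs that carry the signal, 1 was called higher and 0 lower, beside 9.02% and 8.07% of all genes tested. The 1 called was smad9, which encodes a receptor-activated Smad, with 78.1 and 86.6 CPM in positive and 33.2 and 29.1 CPM in negative cells (difference on the log2 scale 1.40, standard error 0.17, adjusted p by edgeR 0.000736). SMAD5, the most abundant of the 5, stood at 87.6 ± 16.5 TPM against 86.1 ± 14.9 TPM (SD, n = 2 each). The difference was 0.08 on the log2 scale, with a 95% interval of -0.33 to 0.49 before adjustment (adjusted p by edgeR 0.813). Its sign turned to -0.02 with upper-quartile factors, to -0.05 without positive replicate 2 and to -0.004 without negative replicate 2.

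Most secreted antagonists did not pass the test, and most of those that did were lower. Of 20 antagonists and modulators tested, 1 was called higher and 4 lower, with a median of -0.20. Over all genes tested the shares were 9.02% higher and 8.07% lower. Among the called antagonists, only chrd kept its call in every alternative. Chordin, the product of chrd, binds BMPs and keeps them from their receptors, and chrd had 5.17 and 4.55 CPM in positive and 21.4 and 20.0 CPM in negative cells (difference on the log2 scale -2.09, standard error 0.22, adjusted p by edgeR 0.000296). Sizzled, the product of szl, inhibits the proteases that cut Chordin, and szl was called lower at -2.47 (standard error 0.55, adjusted p by edgeR 0.0143) from 1.54 and 0.458 CPM against 3.72 and 7.16 CPM. It was not called without negative replicate 2 (-1.91, adjusted p by edgeR 0.13). The Nodal and BMP antagonist gene dand5 was called at -1.46 (adjusted p by edgeR 0.00735), but not without negative replicate 1 (-1.28, adjusted p by edgeR 0.0773). FST ENSDARG00000052846, a follistatin gene, was called at -0.76 (adjusted p by edgeR 0.0184), but not without negative replicate 1 or negative replicate 2. The other FST ID, ENSDARG00000057992, went the opposite way at a low level and was not called (1.63, adjusted p by edgeR 0.0629). BMPER, a secreted binder of BMPs that can raise or lower signalling, was the 1 called higher, with 43.0 and 52.2 CPM against 24.6 and 20.4 CPM (log2 fold change 1.08, standard error 0.19, adjusted p by edgeR 0.00477), though not without negative replicate 2 (0.96, adjusted p by edgeR 0.0636). The most abundant of those not called was FSTL1 ENSDARG00000039576, at 118 ± 6.36 TPM against 103 ± 17.6 TPM (SD, n = 2 each, adjusted p by edgeR 0.457).

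Among 7 other intracellular inhibitors, 2 were called higher and 1 lower, beside 9.02% and 8.07% of all genes tested. SMURF2 and SMURF1 encode ubiquitin ligases that mark Smads and receptors for breakdown. SMURF2 had 74.3 and 116 CPM in positive and 44.6 and 36.9 CPM in negative cells (difference on the log2 scale 1.23, standard error 0.23, adjusted p by edgeR 0.00712), and SMURF1 51.3 and 58.2 CPM against 33.1 and 27.9 CPM (0.84, standard error 0.18, adjusted p by edgeR 0.0118). Without negative replicate 2 neither was called (adjusted p by edgeR 0.0821 and 0.113), and SMURF1 was also not called by limma on log2(TPM + 1) (adjusted p 0.0792) or on log2(TPM + 0.1) (adjusted p 0.0707). TOB1, an antiproliferative gene whose product binds Smads, was called lower at -1.03 (adjusted p by edgeR 0.00697), with adjusted p-values of 0.0501 without negative replicate 1 and 0.0523 without negative replicate 2. Its relative tob1b was the most abundant of those not called, at 43.3 ± 4.58 TPM against 42.6 ± 0.0525 TPM (SD, n = 2 each, adjusted p by edgeR 0.908).

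Response genes outside the set were lower in positive cells for the most part. Of 11 tested, 7 were called lower and 1 higher, beside 8.07% and 9.02% of all genes tested. The homeobox genes vent, ved, msx1b, msx2b and msx3, which mark ventral or dorsal neural territories under BMP control, were all called lower. Transcripts of vent stood at 5.17 and 5.37 CPM in positive and at 20.9 and 21.1 CPM in negative cells, a log2 fold change of -1.99 (standard error 0.21, adjusted p by edgeR 0.000309). For msx2b the values were 4.62 and 3.82 CPM against 14.7 and 15.2 CPM (-1.83, standard error 0.23, adjusted p by edgeR 0.000798). Positive libraries were below the negative ones in each of these 5 genes, as in 30.3% of all genes tested. Log2 fold changes of ved, msx1b and msx3 were -1.32, -1.27 and -1.20 (adjusted p by edgeR 0.0436, 0.00891 and 0.0066). Without negative replicate 2 msx1b and msx3 were not called, but that fit takes its spread from the positive pair alone. Over the main fit and the alternatives, log2 fold changes ran from -1.69 to -0.93 for msx1b and from -1.54 to -0.91 for msx3. The gene ved had 22.0 and 8.14 CPM in the positive libraries, had a log2 fold change of -2.17 when positive replicate 1 was left out and -0.77 when positive replicate 2 was, and was not called without negative replicate 1 (adjusted p by edgeR 0.169) or negative replicate 2 (adjusted p by edgeR 0.168). The related gene vox was not called, at 51.2 ± 1.42 TPM against 69.0 ± 7.00 TPM (SD, n = 2 each, adjusted p by edgeR 0.135). Nor was msx1a, with 5.49 and 1.40 CPM in positive and 7.97 and 9.49 CPM in negative cells (-1.36, adjusted p by edgeR 0.107). The gene msx2a did not pass the filter on low counts.

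The other Id genes did not move together. Here id2b, the close relative of id2a, was called higher, with 56.5 and 40.4 CPM in positive and 19.8 and 23.3 CPM in negative cells (difference on the log2 scale 1.17, standard error 0.21, adjusted p by edgeR 0.00538). ID4 was called lower at -1.04 (adjusted p by edgeR 0.0217), as was TBX2 ENSDARG00000006120, a T-box repressor of the heart's atrioventricular canal, at -0.78 (adjusted p by edgeR 0.0158). These 3 are named outside the naming rule, after their values were seen. Without negative replicate 1 none of them was called (adjusted p by edgeR 0.0659, 0.0751 and 0.139), and ID4 was also not called without negative replicate 2 (adjusted p by edgeR 0.165). TBX2 ENSDARG00000006120 missed the threshold with limma on log2(TPM + 1) (adjusted p 0.0552) and on log2(TPM + 0.1) (adjusted p 0.053). The other TBX2 ID, ENSDARG00000018025, was not called (-0.50, adjusted p by edgeR 0.0807). Summed over the 5 Id IDs, levels were 1776 and 1470 TPM in positive and 2100 and 2130 TPM in negative cells, and id1 made up 66.9% and 59.0% of the sum in positive against 71.6% and 69.6% in negative cells.

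Markers of other tissues also differed between the fractions, in both directions. Only markers matched to an ID are counted, and over all genes tested 9.02% were called higher and 8.07% lower. All 5 tail bud markers, among them ved, were called lower in positive cells, with summed CPM of 153 and 135 against 1009 and 1081. All 8 presomitic and somite markers were lower, at 126 and 91.7 summed CPM against 828 and 935, as were all 5 neural markers, at 465 and 412 against 1175 and 1091. Of 5 neural crest markers 3 were lower and 1 higher, with sums of 193 and 153 against 290 and 281, and of 7 blood markers 5 were lower and 1 higher, with sums of 554 and 549 against 1120 and 1177. Endothelial and endocardial markers were higher for 7 of 8, at 913 and 1187 against 549 and 504. The 4 hatching gland markers were all lower, at 346 and 343 against 922 and 1426, as were both pronephros markers, at 2.73 and 2.85 against 10.6 and 9.67, while of 5 endoderm markers 1 was higher and 1 lower, at 63.3 and 47.1 against 51.3 and 60.2. Epidermal markers were higher for 1 and lower for 1 of 6, at 2834 and 2258 against 2616 and 2225. None of the markers in these lists was at 0 in both positive libraries. The part of these tissues in the differences of bmp4, the inhibitors, the Msx genes or vent was not tested.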

How the data were processed

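Per the labels' protocols, about 50 ng of RNA per sample was primed on the poly(A) tail, amplified with a Clontech low-input kit, fragmented by tagmentation and read from both ends. The submitters' processing notes name Salmon 1.2.1 and BWA 0.7.12-r1039 and the builds Zv9 (danRer7) and GRCz11 (danRer11), without saying what each was used for. Whether counting used strand or molecular identifiers is not given in the sources used here. Per gene, the deposited table holds, per the file headers, whole-number counts, treated as estimated counts, since the TPM was above 0 for 20 entries counted at 0, and log2 TPM values made by the authors, whose offset of 1 was read from the values. TPM was recovered from the latter.

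Gene names came from a table that named 23599 of the 25873 IDs. Synonyms came from a RefSeq table of assembly GRCz12tu. Counts were tested with edgeR 4.0.16 in R 4.3.3, with TMM normalisation and filterByExpr (minimum count 10, minimum total 15), without a replicate block. Standard errors were derived from each fold change and its F statistic. Errors are mean ± SD over 2 libraries. One count was worth 0.0254 to 0.0321 CPM. The fit was also run on counts simulated from its own estimates of spread, with changes added to some genes. Such a run cannot show how the fit performs on the real libraries. Replicates were distinct libraries: of genes with 100 counts or more, 61.5% (positive) and 60.3% (negative) differed between replicates beyond the 95% range of sampling noise.

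The genes examined and the lists were chosen with earlier results of these data known. The naming rule took, per list, the 5 largest called changes with a mean of at least 1 CPM and the most abundant gene not called. Alternatives were edgeR with upper-quartile factors or with DESeq2's size factors, no filter on low counts, at least 1 CPM in 2 libraries, DESeq2 1.42.0, limma 3.58.1 on log2(TPM + 1) and log2(TPM + 0.1), the replicate block, leaving out each library, and an adjusted p under 0.01. The pathway entries eng, chrdl1 and twsg1b were not matched and are not analysed here. Nor were the marker entries mef2ca, tnnt2a, tnni1b, ttn.2, vmhc, fli1a, hbbe1.1, wnt8a, pax6a, zic2a, pax2a and hnf1ba.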

Additional observations from a re-analysis of the deposited data

How the results depend on the processing

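The 6 gene IDs of the set called higher were called higher in each alternative, except SMAD6 ENSDARG00000031763 without negative replicate 2. The number called higher ran from 5 to 7 over fits that leave out 1 library, and the number called lower from 0 to 1, the 1 being id1 without positive replicate 1. Over 12 IDs and 13 alternatives, 151 of 156 values kept direction and side of the threshold, 1 lost its call (SMAD6 ENSDARG00000031763) and 2 gained one (smad7 and id1). For id2a 2 turned sign: -0.052 with upper-quartile factors, and -0.13 without negative replicate 1 in a leave-one-out range up to 0.26. Of 455 values for 35 other pathway IDs followed in this way 416 kept both, 32 lost the call, 1 gained it and 6 turned sign. The last were SMAD5 and tob1b, neither called: SMAD5 gave -0.018 with upper-quartile factors, and -0.047 without positive replicate 2 and -0.0043 without negative replicate 2 in a leave-one-out range up to 0.23; tob1b gave -0.063 with upper-quartile factors, and -0.0062 without positive replicate 2 and -0.046 without negative replicate 1 in a range up to 0.14. Upper-quartile factors moved the median of all genes from -0.01 to -0.11. At an adjusted p under 0.01 the table had 966 genes higher and 784 lower, and the other pathway lists 11 lower. That threshold was read from the main fit, so among the 156 and 455 values no direction could turn there and no call be gained. Leaving out 1 library gave 852 to 2446 higher and 747 to 1846 lower across the table, and 8 to 16 higher and 10 to 21 lower in the other pathway lists. The cause of the fewer calls without a negative library was not tested. On CPM in place of TPM, bmp4 made up 34.9% of ligand transcripts in positive and 18.1% in negative cells, against 28.7% and 12.9%, because CPM does not correct for length. With the replicate block there were 6 higher and 0 lower in the set, 15 higher and 18 lower in the other lists and 1762 higher and 1561 lower across the table. Deviations of same-numbered libraries correlated at -0.09 over 19084 genes. With 2 libraries a group this value cannot decide whether the samples were paired, which is not stated. The main fit used no replicate block. With 2 libraries a group, the low genes szl and GDF7 had standard errors of 0.55 and 0.37. The part of low counts in these errors was not tested.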
